A study of Rattus norvegicus with 6 samples.

Results

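The genes described here are 10 direct targets of the glucocorticoid receptor: Sgk1, Tsc22d3, Ddit4, Errfi1, Nfkbia, Zbtb16, Cdkn1a, Plin4, Arrdc2 and Sult1a1. They were found by matching their rat symbols to the NCBI gene identifiers of the count files, and all 10 were present among 38445 genes. They were chosen by their known regulation and by their levels in these 6 libraries, ethanol against control, which were already known. Every difference between control and ethanol given for them is therefore a description, and no test result for them is offered as support.

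Transcript levels were measured by RNA-seq in the amygdala of adult male Sprague Dawley rats of wild-type background. Control rats received saline and ethanol-treated rats received ethanol at 1 g/kg, both by intraperitoneal injection, and the amygdala was collected 1 h later. Each library holds RNA pooled from 2 rats, and there are 3 control and 3 ethanol libraries, here called control 1 to 3 and ethanol 1 to 3. The comparison asks which mRNA levels differ in the amygdala after a single low dose of ethanol.

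Glucocorticoids are the steroid hormones that the adrenal gland releases during stress, corticosterone being the main one in rats. They enter cells and bind the glucocorticoid receptor (Nr3c1) or the mineralocorticoid receptor (Nr3c2), which then move to the nucleus and bind DNA at glucocorticoid response elements. The genes switched on in this way are found in neurons, glia and blood vessels of the brain, and many of their products restrain other signals, such as inflammatory, growth factor and mTOR signaling.

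The libraries held 62576504 to 70755739 reads counted within genes, so 3 counts correspond to 0.0424 to 0.0479 CPM (counts scaled to 1e6 per library), a floor that covers counting error only. Levels below are CPM scaled by edgeR's TMM factors, with the SD over 3 libraries, and a log2 fold change is ethanol over control from edgeR's fit across all genes, with its standard error (SE). The neuron markers Snap25 and Syt1 were at 1811 and 1184 CPM on average, as in brain tissue. Markers of choroid plexus epithelium were also present and were uneven between libraries. Their summed level, over 10 listed genes of which Otx2 was at or near 0, was 793 to 1484 CPM in the controls, 101.5 and 127 CPM in ethanol 1 and 2, and 735 CPM in ethanol 3. In bulk tissue, fewer cells of a type and less RNA per cell cannot be told apart.

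At the study's threshold of 0.2 on the Benjamini-Hochberg adjusted p, the quasi-likelihood test of edgeR called 0 of 18141 genes tested (0%), and 763 had an unadjusted p below 0.05. With other tools on the same counts, edgeR's likelihood ratio test called 77 genes, DESeq2 75 and limma-voom 0. All 10 glucocorticoid target genes passed the filter on low counts, and 0 were called by the quasi-likelihood test.

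All 10 genes were higher on average after ethanol, with log2 fold changes from 0.28 (Zbtb16) to 0.70 (Sgk1) and a median of 0.41, where the median over all genes tested was 0.01 and 52.7% of genes had a value above 0. For 5 of the 10 (Sgk1, Tsc22d3, Ddit4, Errfi1 and Nfkbia), all 3 ethanol libraries were above all 3 controls, which was the case for 3.65% of all genes tested. These counts use the contrast in which the genes were picked, so nothing is read from them.

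**Figure D1:**
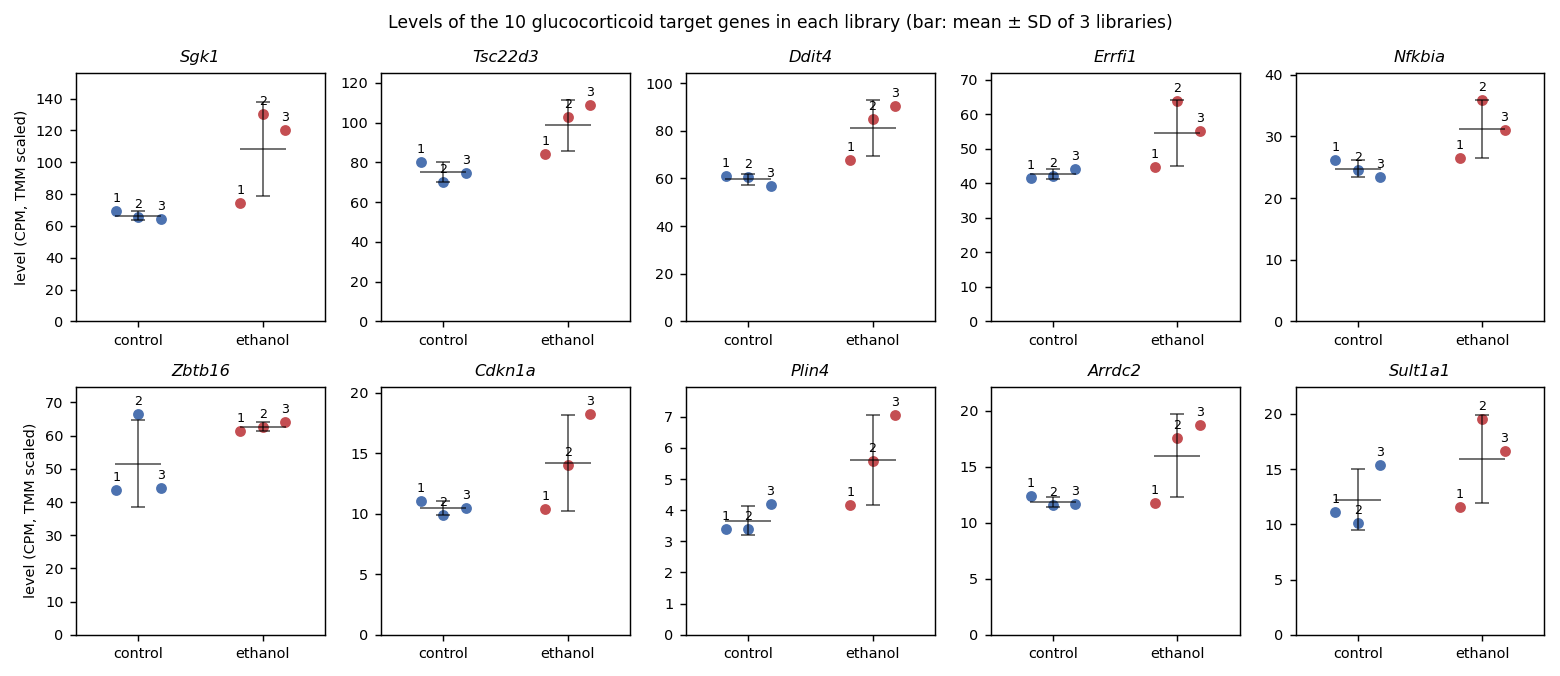
Level of each of the 10 genes (y axis, CPM scaled by TMM, starting at 0) in the control and ethanol groups, with 1 point per library marked by its replicate number and a bar for the mean ± SD of 3 libraries. Ethanol 1 was the lowest ethanol library for each gene, and for Sgk1 it was at 74.7 CPM while ethanol 2 and 3 were at 130.3 and 120.3 CPM.

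Sgk1 encodes a serum- and glucocorticoid-regulated kinase that controls the number of ion channels and transporters at the cell surface. On Rnor_6.0 the gene (NCBI gene 29517) spans chromosome 1 from 24185451 to 24302309 on the minus strand, in 17 exonic blocks. Its counts were 4551, 4671 and 4075 in control 1 to 3 and 4791, 8381 and 8376 in ethanol 1 to 3. As levels, the controls lay close together at 69.6, 65.8 and 64.3 CPM, ethanol 1 was just above them at 74.7 CPM, and ethanol 2 and 3 were far higher at 130.3 and 120.3 CPM. The log2 fold change of 0.70 (SE 0.18) therefore averages a small difference in ethanol 1 with a large one in ethanol 2 and 3, and without ethanol 1 it was 0.91 (SE 0.07). The group means were 66.6 ± 2.75 CPM in controls and 108 ± 29.7 CPM after ethanol (SD, n = 3 libraries each), so the spread over the ethanol libraries was the larger.

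Among the regulators of transcription, Tsc22d3 encodes the glucocorticoid-induced leucine zipper protein GILZ, which binds and restrains inflammatory transcription factors. Tsc22d3 (NCBI gene 83514, chromosome X from 111884285 to 111944693) was at 80.2, 70.3 and 74.8 CPM in the controls and at 84.2, 102.5 and 108.9 CPM in ethanol 1 to 3. The groups did not overlap, but ethanol 1 was only just above control 1, and the log2 fold change was 0.39 (SE 0.10). Zbtb16, which encodes the zinc finger transcription factor PLZF, differed in pattern from the other genes. Zbtb16 (NCBI gene 353227, chromosome 8 from 52980226 to 53146765) was even in the ethanol libraries, at 61.4, 62.7 and 64.1 CPM, while the controls were at 43.7, 66.6 and 44.1 CPM. Control 2 was the highest of all 6 libraries, so the groups overlapped. The log2 fold change of 0.28 (SE 0.16) became 0.51 without control 2, 0.17 without control 1 and 0.19 without control 3.

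Ddit4, Errfi1, Nfkbia and Cdkn1a encode inhibitors of signaling or of the cell cycle. Ddit4, also called REDD1, holds back the mTORC1 growth pathway. Ddit4 (NCBI gene 140942, chromosome 20 from 29509283 to 29511382) was at 61.1, 60.6 and 56.8 CPM in the controls and at 67.8, 84.8 and 90.5 CPM in ethanol 1 to 3, with a log2 fold change of 0.44 (SE 0.11). The controls lay within a few CPM of each other and the lowest ethanol library was above them. Errfi1 encodes MIG6, a feedback inhibitor of the EGF receptor. Errfi1 (NCBI gene 313729, chromosome 5 from 167951564 to 167966011) was at 41.6, 42.1 and 44.2 CPM in the controls and at 44.9, 64.0 and 55.1 CPM in ethanol 1 to 3, with a log2 fold change of 0.36 (SE 0.12) that became 0.23 without ethanol 2. Ethanol 1 and control 3 were separated by less than the SD of either group.

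Nfkbia encodes IκBα, which keeps NF-κB in the cytoplasm. Nfkbia (NCBI gene 25493, chromosome 6 from 76267227 to 76270457) was at 26.2, 24.6 and 23.5 CPM in the controls and at 26.6, 36.0 and 31.1 CPM in ethanol 1 to 3, with a log2 fold change of 0.33 (SE 0.11) that became 0.22 without ethanol 2. Here too the groups were separated by a narrow margin, since ethanol 1 and control 1 differed by less than the control SD of 1.37 CPM. Cdkn1a encodes p21, an inhibitor of cyclin-dependent kinases that is also a target of p53. Cdkn1a (NCBI gene 114851, chromosome 20 from 6348422 to 6358864) was at 11.04, 9.87 and 10.5 CPM in the controls and at 10.4, 14.0 and 18.2 CPM in ethanol 1 to 3. Ethanol 1 lay inside the control range while ethanol 3 was 1.74 times the control mean, and the log2 fold change was 0.44 (SE 0.19), or 0.22 without ethanol 3.

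Plin4, Arrdc2 and Sult1a1 belong to lipid storage, trafficking and conjugation. Plin4 encodes perilipin 4, a coat protein of lipid droplets, and had the lowest level of the 10. Plin4 (NCBI gene 363331, chromosome 9 from 10963494 to 10972360) had counts of 221, 241 and 266 in the controls and 267, 359 and 491 in ethanol 1 to 3, or 3.38, 3.39 and 4.20 CPM against 4.16, 5.58 and 7.05 CPM. Its log2 fold change of 0.62 (SE 0.20) was the second highest of the set, although ethanol 1 was below control 3. Arrdc2, a member of the alpha-arrestin family, was at 12.4, 11.6 and 11.7 CPM in the controls and at 11.7, 17.5 and 18.7 CPM in ethanol 1 to 3 (NCBI gene 306344, chromosome 16 from 20352480 to 20356612). Its controls were tight, with an SD of 0.438 CPM, and ethanol 1 was among them, while ethanol 2 and 3 were at 1.47 and 1.58 times the control mean. The log2 fold change was 0.43 (SE 0.16), and 0.61 (SE 0.09) without ethanol 1. Sult1a1 encodes a phenol sulfotransferase, which attaches sulfate to phenolic compounds. Sult1a1 (NCBI gene 83783, chromosome 1 from 198100586 to 198104106) was at 11.2, 10.1 and 15.3 CPM in the controls and at 11.6, 19.5 and 16.6 CPM in ethanol 1 to 3, a log2 fold change of 0.38 (SE 0.21) that became 0.21 without ethanol 2 and 0.58 without control 3. Control 3 stood above ethanol 1, so the groups overlapped.

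Counting was strand-specific, and 0 of the 10 genes have exonic bases in common with a same-strand neighbour. Exons of Sgk1, Errfi1, Nfkbia and Plin4 share bases with a gene on the opposite strand.

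**Figure D2:**
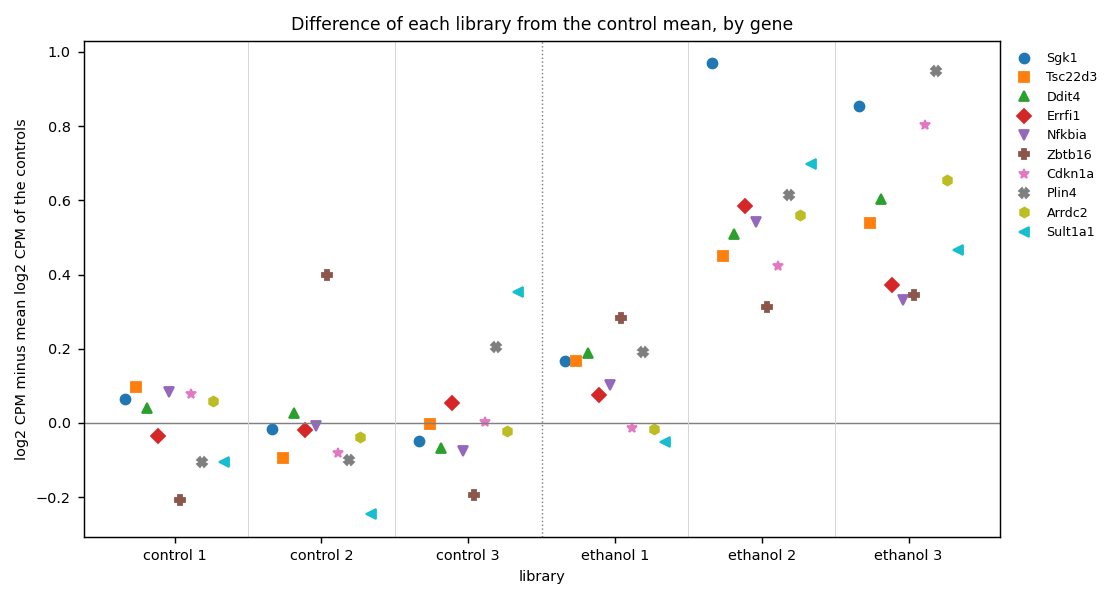
Difference of each library from the mean of the controls (y axis, log2 CPM with a prior count of 2) for the 10 genes, with 1 symbol per gene in each of the 6 libraries (x axis). The median over the genes was 0.13 in ethanol 1, 0.55 in ethanol 2 and 0.57 in ethanol 3, and Zbtb16 in control 2 stands at 0.40.

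The 3 ethanol libraries were not alike. Ethanol 1 was the lowest of them for 10 of 10 genes, against 29.3% of all genes tested (32.6% for ethanol 2 and 38.1% for ethanol 3), and its median log2 difference from the control mean over the 10 genes was 0.13, compared with 0.55 in ethanol 2 and 0.57 in ethanol 3. Over all genes tested, the same medians were between -0.001 and 0.006. Ethanol 1 was above all 3 controls for 5 genes (23.2% of all genes tested) and inside or below the control range for Zbtb16, Cdkn1a, Plin4, Arrdc2 and Sult1a1. Ethanol 2 and 3 were both above all 3 controls for 9 genes, Zbtb16 being the exception, where the share among all genes tested was 7.46%, or 5.23% with ethanol 1 also the lowest of the ethanol libraries. The level in ethanol 1 was 59.6% of the mean of ethanol 2 and 3 for Sgk1, 64.2% to 65.9% for Cdkn1a, Sult1a1, Arrdc2 and Plin4, 75.3% to 79.7% for Errfi1, Ddit4, Nfkbia and Tsc22d3, and 96.8% for Zbtb16. This division among the ethanol libraries was known when the genes were picked and is likewise given without a test.

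The control libraries were even for most of the genes and the ethanol libraries were not. The coefficient of variation over the controls was 3.29% to 12.8% for 8 genes, with Sult1a1 at 22.6% and Zbtb16 at 25.4%. Over the ethanol libraries it was 13.0% to 27.7% for 9 genes and 2.15% for Zbtb16. It was larger in the ethanol group for 9 of the 10 genes, and for 55.8% of all genes tested. The genes were picked with the division among the ethanol libraries known, so this count is a description only.

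Per kilobase of annotated exon, the control levels covered a wide range. Ddit4 was the highest at 34.5 ± 1.37 CPM per kb (SD, n = 3 libraries), followed by Tsc22d3 at 24.0 ± 1.59, Sgk1 at 18.2 ± 0.755 and Nfkbia at 15.8 ± 0.876 CPM per kb. Each of these was separated from its neighbours in the order, over the 3 controls. Sult1a1 followed at 10.002 ± 2.26 CPM per kb, then Zbtb16 at 6.49 ± 1.65, Cdkn1a at 5.28 ± 0.296 and Arrdc2 at 5.13 ± 0.189 CPM per kb, and each neighbouring pair among these 4 overlapped. Errfi1 was at 3.37 ± 0.111 CPM per kb and Plin4 at 0.654 ± 0.0835 CPM per kb. These levels divide by the length of all annotated exons, which for Errfi1 come to 12644 bases, so exons that the amygdala does not use lower the value.

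Across the 6 libraries, the log2 CPM of the genes varied together. They were picked with these levels and the division among the ethanol libraries known, so their correlations with each other are a description only. The 45 pairs had a median Pearson r of 0.89, and the pairs with Zbtb16 had values from 0.09 (with Sult1a1) to 0.60 (with Ddit4). Ddit4 (0.97), Arrdc2 (0.97), Nfkbia (0.97), Errfi1 (0.96) and Tsc22d3 (0.96) were closest to Sgk1. The same search over the 14231 other genes with at least 1 CPM in every library placed Pdk4 (r = 0.99), Gpr6 (0.99), Uqcr11 (0.99), Alb (0.98) and Gipc1 (0.98) nearest to Sgk1. Pdk4 (0.99), Uqcr11 (0.99), Chmp4bl1 (0.99), Plekhf1 (0.99) and Cd101 (0.98) were nearest to the mean of the 10 genes after each was centered and scaled. The genes in these lists differ in size of change, with log2 fold changes of 0.99 for Pdk4 and 1.08 for Plekhf1 but 0.08 for Uqcr11 and 0.06 for Chmp4bl1. All of these correlations describe 6 libraries that share the 2 groups. The nearest genes are the highest of 14231 values over 6 libraries. Values of r this high can come from the search alone, and no test of them was made.

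The region just before the start site is shown for the 5 genes whose groups did not overlap, so that their promoter elements can be read. It is also shown for Sult1a1, as an example of a window with a hexamer of the glucocorticoid response element. A window of Plin4 also holds this hexamer and is not shown. RefSeq windows of 250 bases before to 50 bases after each annotated start site, on the GRCr8 build, were at hand for 9 of the 10 genes, with 17 windows in all. Zbtb16 was the gene without a window. Where a gene has several start sites, the window whose TATA box on the gene's strand lies nearest to the start is given, and which start the amygdala uses was not measured. Each window reads 5′ to 3′ along the gene's strand. Capitals mark the TATA box (TATAAA or its reverse complement TTTATA) and, in Sult1a1, the hexamer AGAACA on either strand. The Ddit4 window holds neither.
Sgk1, chr1:24804782-24805081, minus strand: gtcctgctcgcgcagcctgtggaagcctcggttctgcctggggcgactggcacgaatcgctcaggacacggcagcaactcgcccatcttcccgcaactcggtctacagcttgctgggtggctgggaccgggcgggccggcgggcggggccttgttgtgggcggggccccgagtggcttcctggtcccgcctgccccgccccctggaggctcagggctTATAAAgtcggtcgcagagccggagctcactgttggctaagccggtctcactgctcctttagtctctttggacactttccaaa
Tsc22d3, chrX:109009985-109010284, minus strand: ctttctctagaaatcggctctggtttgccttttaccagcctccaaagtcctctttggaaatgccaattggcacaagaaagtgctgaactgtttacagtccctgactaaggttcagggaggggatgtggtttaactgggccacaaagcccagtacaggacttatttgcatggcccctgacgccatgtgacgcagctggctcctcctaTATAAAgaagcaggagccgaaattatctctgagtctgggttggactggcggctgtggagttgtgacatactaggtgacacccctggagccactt
Ddit4, chr20:28436988-28437287, minus strand: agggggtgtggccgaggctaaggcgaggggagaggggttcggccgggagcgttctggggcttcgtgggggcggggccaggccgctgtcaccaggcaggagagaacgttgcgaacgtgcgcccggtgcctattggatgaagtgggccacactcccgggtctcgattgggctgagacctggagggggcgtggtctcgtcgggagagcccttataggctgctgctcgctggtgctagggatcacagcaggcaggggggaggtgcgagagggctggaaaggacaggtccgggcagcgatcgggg
Errfi1, chr5:166606591-166606890, plus strand: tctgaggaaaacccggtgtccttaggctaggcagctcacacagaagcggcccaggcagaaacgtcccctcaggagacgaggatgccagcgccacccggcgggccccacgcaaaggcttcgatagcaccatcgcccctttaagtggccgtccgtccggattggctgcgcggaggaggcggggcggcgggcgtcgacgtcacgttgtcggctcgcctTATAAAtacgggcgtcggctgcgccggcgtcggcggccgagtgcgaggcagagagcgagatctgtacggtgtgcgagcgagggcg
Nfkbia, chr6:78597023-78597322, minus strand: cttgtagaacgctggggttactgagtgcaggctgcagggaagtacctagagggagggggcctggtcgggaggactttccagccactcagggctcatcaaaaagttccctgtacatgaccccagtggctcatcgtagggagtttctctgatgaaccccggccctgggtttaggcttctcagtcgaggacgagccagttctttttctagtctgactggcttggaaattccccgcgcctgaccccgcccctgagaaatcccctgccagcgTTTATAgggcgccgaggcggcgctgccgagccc
Sult1a1, chr1:190706063-190706362, minus strand: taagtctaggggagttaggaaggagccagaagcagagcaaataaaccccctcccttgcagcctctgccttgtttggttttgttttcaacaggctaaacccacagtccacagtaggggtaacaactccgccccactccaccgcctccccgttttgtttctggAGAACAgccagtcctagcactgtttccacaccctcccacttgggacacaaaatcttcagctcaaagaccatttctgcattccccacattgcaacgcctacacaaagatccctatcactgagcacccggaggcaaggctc

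In the windows shown, the TATA box began 33 bases before the start site in Sgk1, 44 bases before it in Tsc22d3 and 35 bases before it in Errfi1. In Nfkbia the letters were found on the reverse strand after the start site. Sgk1 and Tsc22d3 have 3 windows each, and the window shown was chosen by its TATA box. Another window of Sgk1 had a TATA box 55 bases before its start site. On either strand the TATA box was present in 5 of the 17 windows and in 14.2% of all 33469 promoter windows of the rat. The full glucocorticoid response element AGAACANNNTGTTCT, which reads the same on both strands, was in 0 of the 17 windows and in 0.0149% of all windows. The looser form GNACANNNTGTNC, which contains the full element, was in 0 of the 17 windows and in 0.439% of all windows. The hexamer AGAACA, which forms each arm of the full element, was found on either strand in 1 window of Sult1a1 and 1 of Plin4, and in 20.7% of all windows. A match is a description of letters, and its absence says only that they are not in these 300 bases.

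Other genes that glucocorticoids induce in brain or other tissues were described from a hand-written list of 28, all of which passed the filter. Of these, 27 were higher and 1 lower on average after ethanol, with a median log2 fold change of 0.32, and 0 were called in either direction by edgeR's quasi-likelihood test (0% of all genes tested). In 15 of the 28, all 3 ethanol libraries were above all 3 controls, against 3.65% of all genes tested, and in 0 were they all below (5.19%). An unadjusted p below 0.05 was reached by 15 of the 28 with higher levels and 0 with lower levels, against 1.59% and 2.61% of all genes tested. Of the 28, the likelihood ratio test called 9, DESeq2 9 and the quasi-likelihood test without ethanol 1 called 2, against 0.138%, 0.16% and 0.0217% of all genes called as higher. The list was written with earlier results of these data known, so these counts are not independent evidence of its direction. As in the 10 targets, the median log2 difference from the control mean over the list was lower in ethanol 1 (0.13) than in ethanol 2 (0.40) and ethanol 3 (0.41). Ethanol 1 was the lowest ethanol library for 19 of the 28 genes, compared with 10 of the 10 targets and 29.3% of all genes tested.

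**Figure D3:**
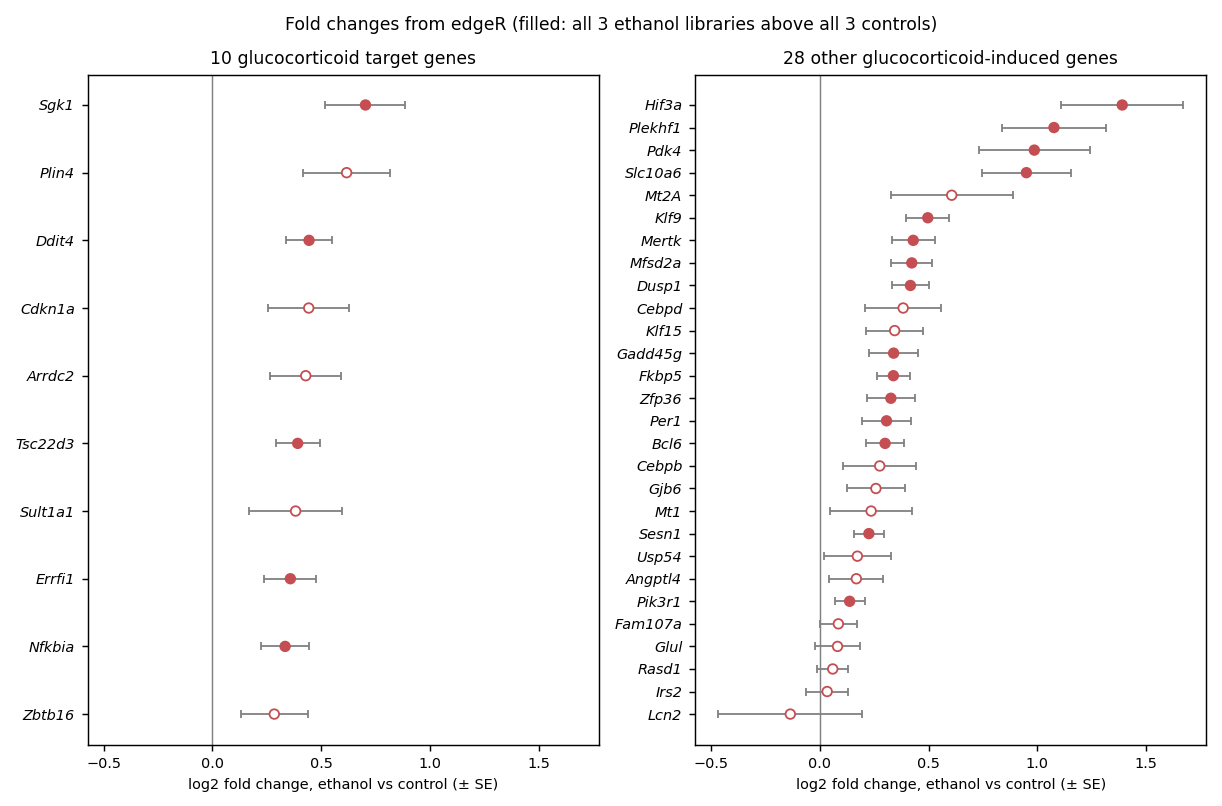
Log2 fold change of ethanol over control with its SE (x axis) for the 10 target genes and for the 28 other glucocorticoid-induced genes, ordered by size, filled where all 3 ethanol libraries were above all 3 controls. All 10 target genes lie between 0.28 and 0.70, and the other genes between -0.14 (Lcn2) and 1.39 (Hif3a).

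The 5 genes of that list with the smallest p were Klf9, Dusp1, Hif3a, Slc10a6 and Mfsd2a. Each had groups that did not overlap, with ethanol above (3.65% of all genes tested). They were picked by p on this contrast, so their non-overlap is a description only. When the list was written, earlier results of these data were in view for Hif3a, Slc10a6, Fkbp5 and Dusp1. Klf9, a Krüppel-like factor that glucocorticoids induce in neurons, was at 61.6, 69.2 and 57.9 CPM in the controls and at 78.3, 96.8 and 91.1 CPM in ethanol 1 to 3, with a log2 fold change of 0.50 (SE 0.10, adjusted p = 0.807 in edgeR). Mfsd2a, a lipid transporter of the blood-brain barrier, was at 15.3, 14.5 and 13.5 CPM in the controls and at 17.3, 20.8 and 19.97 CPM in ethanol 1 to 3, with a log2 fold change of 0.42 (SE 0.09, adjusted p = 0.809 in edgeR). In both genes ethanol 1 was the lowest ethanol library yet stood clear of the controls. Dusp1, a phosphatase of MAP kinases, had a log2 fold change of 0.42 (SE 0.08), Hif3a, a subunit of a hypoxia-inducible factor, 1.39 (SE 0.28), and Slc10a6, a carrier of sulfated steroids, 0.95 (SE 0.21). Hif3a and Slc10a6 had low levels, with means of 1.03 and 0.835 CPM in the controls and 2.72 and 1.62 CPM after ethanol.

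Among the classical targets, Pdk4, a kinase that turns off pyruvate dehydrogenase, came closest to Sgk1 in pattern. Pdk4 was at 4.11, 3.60 and 4.20 CPM in the controls and at 4.77, 10.01 and 8.81 CPM in ethanol 1 to 3, with a log2 fold change of 0.99 (SE 0.25, adjusted p = 0.915 in edgeR). Fkbp5, a chaperone that lowers the affinity of the glucocorticoid receptor for its hormone, and the clock gene Per1 had groups that did not overlap. Fkbp5 was at 51.3, 58.5 and 60.3 CPM in the controls and at 68.4, 71.5 and 75.1 CPM in ethanol 1 to 3, and its log2 fold change was 0.34 (SE 0.08). Per1 was at 60.5, 68.4 and 51.8 CPM in the controls and at 68.5, 82.4 and 72.6 CPM in ethanol 1 to 3, and its log2 fold change was 0.31 (SE 0.11). Its groups were separated by a very narrow margin, since ethanol 1 and control 2 differed by far less than the control SD of 8.28 CPM.

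The receptors and the enzyme that makes active hormone locally differed little between the groups. Nr3c1 was at 110 ± 9.66 CPM in controls and 109 ± 5.38 CPM after ethanol (SD, n = 3 libraries each), a log2 fold change of -0.02 (SE 0.08). Nr3c2 was at 75.2 ± 16.6 and 75.0 ± 20.7 CPM, a log2 fold change of -0.004 (SE 0.22). Hsd11b1, which regenerates corticosterone inside cells, was at 54.2 ± 1.5 and 54.2 ± 7.45 CPM, a log2 fold change of -0.0008 (SE 0.10). The differences of all 3 were smaller than their SEs. The list of 12 receptors, hormone-converting enzymes, chaperones and coactivators to which they belong had a median log2 fold change of -0.0001, with 6 higher, 6 lower and 0 called.

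Some of the 10 genes also answer to other pathways, so targets of these were counted. The part of these pathways in the levels of the 10 genes was not tested. Of 13 p53 targets tested other than Cdkn1a, 8 were higher and 5 lower, with a median log2 fold change of 0.06 (0.03 without ethanol 3, 0.09 without control 2), and 0 were called. For 2 of the 13, all 3 ethanol libraries were above all 3 controls (3.65% of all genes tested). For 1 they were all below (5.19%). The summed level of the list was 466 to 479 CPM in the controls and 490 to 510 CPM after ethanol, without overlap. Most of that sum came from Ccng1 and Zmat3, whose log2 fold changes were 0.15 (SE 0.07) and 0.03 (SE 0.06). Of 12 NF-κB targets tested other than Nfkbia, 5 were higher and 7 lower, with a median of -0.03 (0.03 without control 3) and 0 called. For 0 of the 12, all 3 ethanol libraries were above all 3 controls (3.65% of all genes tested), and for 1 they were all below (5.19%). The summed levels of the listed NF-κB targets, 114 to 132 CPM in controls and 113 to 122 CPM after ethanol, overlapped. The most abundant of these, Vcam1 and Nfkb1, had log2 fold changes of -0.05 (SE 0.09) and -0.01 (SE 0.06).

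**Figure D4:**
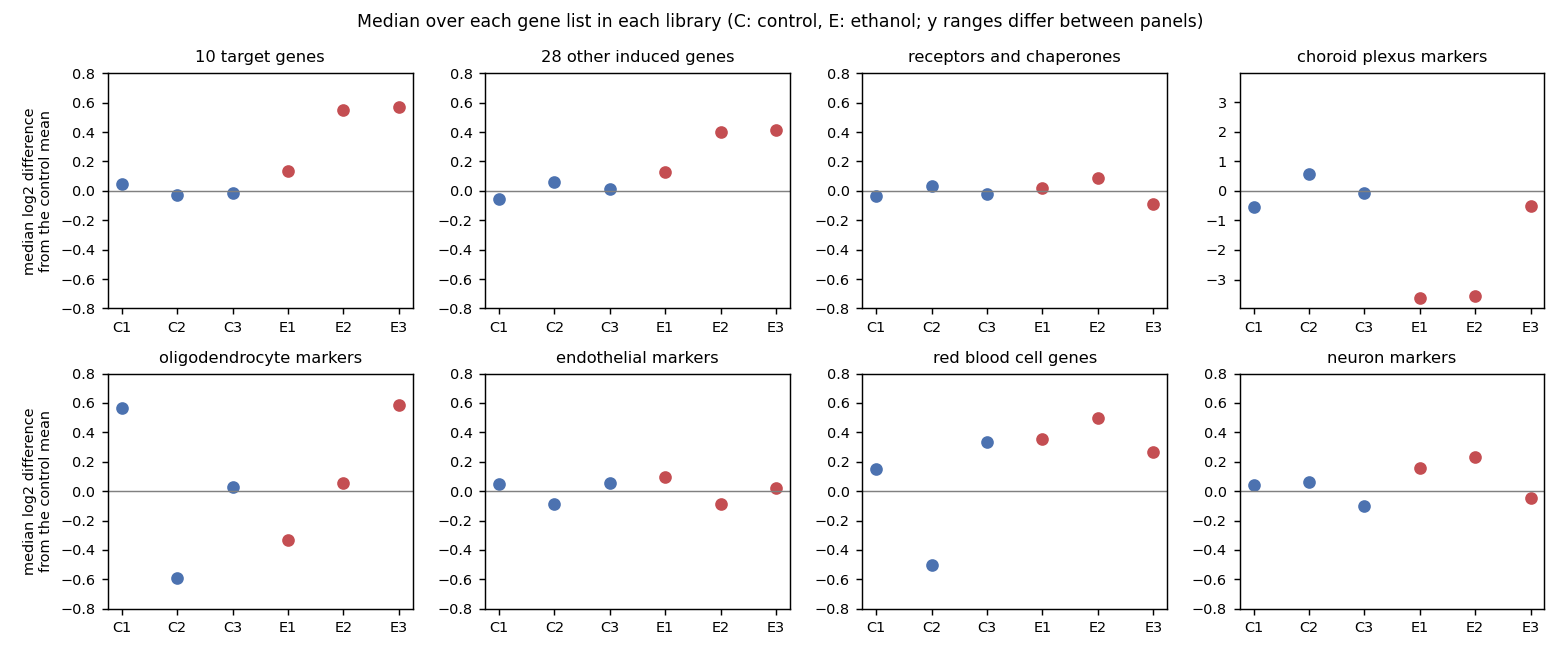
Median log2 difference from the control mean (y axis) over each gene list in each library (C1 to C3 control, E1 to E3 ethanol), with a wider y range for the choroid plexus markers. The 10 target genes and the 28 other induced genes were highest in ethanol 2 and 3, while the choroid plexus markers were lowest in ethanol 1 and 2.

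Markers of other cell types were read in each library beside the target genes, and the quasi-likelihood test called 0 of them. Over these markers, the receptor list and the pathway lists together, the likelihood ratio test called 1 gene, DESeq2 1, and the quasi-likelihood test without ethanol 3 called 9. Over all genes tested, the same 3 fits called 77 of 18141, 75 of 18135 and 82 of 18356. All 9 tested choroid plexus markers were lower on average after ethanol, with a median log2 fold change of -1.79 (-3.81 without ethanol 3), and Ttr, the most abundant, was at 5.42 and 4.34 CPM in ethanol 1 and 2 and at 425 CPM in ethanol 3. Enpp2, the next, had a log2 fold change of -0.97 (SE 0.35). The median over these markers, as a log2 difference from the control mean, was -3.62 in ethanol 1, -3.57 in ethanol 2 and -0.50 in ethanol 3. The target genes thus divided ethanol 1 from ethanol 2 and 3, and the choroid plexus markers divided ethanol 1 and 2 from ethanol 3. Red blood cell genes had a summed level of 172 to 291 CPM in the controls and 297 to 332 CPM in the ethanol libraries, with ethanol 1 (297.5) level with ethanol 3 (297.2), and their median log2 fold change of 0.32 became 0.10 without control 2 and 0.53 without control 3. Hba-a1 had a log2 fold change of 0.44 (SE 0.15) and Hbb of 0.27 (SE 0.21), and Hbb-b1 was at or near 0. The part of these RNAs in the levels of the target genes was not tested.

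The markers of the remaining cell types overlapped between the groups in summed level. Endothelial markers were at 416 to 451 CPM in the controls and 432 to 473 CPM after ethanol, with 7 of 12 higher and a median log2 fold change of 0.02, or -0.03 without ethanol 1. Among them Slc2a1, the glucose transporter GLUT1, had 0.32 (SE 0.09) and Flt1 -0.09 (SE 0.08). Oligodendrocyte markers varied most within the groups, at 3659 to 8618 CPM in the controls and 4484 to 9949 CPM after ethanol, and were lower in ethanol 1 than in ethanol 2 (6185 CPM) and ethanol 3. In 7 of 8 the mean was higher after ethanol, with a median of 0.15 that became -0.16 without ethanol 3, and Mbp had 0.24 (SE 0.43). Control 2 had the lowest and control 1 the second highest summed level of these markers. The part of oligodendrocyte RNA in the levels of the target genes was not tested. Astrocyte markers were at 6212 to 7657 CPM in the controls and 6459 to 8728 CPM after ethanol, with 7 of 8 higher and a median of 0.06 that became -0.08 without ethanol 3, and S100b and Aqp4 both had 0.07. Microglia markers were at 310 to 344 and 314 to 366 CPM, with 5 of 8 higher and a median of 0.09 (0.03 without control 1 or ethanol 1, 0.04 without ethanol 3 and 0.15 without ethanol 2), and Csf1r and C1qa had 0.11 and 0.15. Neuron markers were at 4672 to 5405 and 4515 to 6042 CPM, with 7 of 9 higher and a median of 0.12 (0.02 without ethanol 2, 0.05 without control 3), and Snap25 and Syt1 had 0.12 and 0.09.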

How the data were processed

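The deposited files hold raw counts per gene, which the authors made from trimmed single-end reads of each library. Per the file headers these came from featureCounts 1.6.3 with the reverse-stranded setting over the exons of the Rnor_6.0 annotation, and the processing notes name STAR 2.7.0f. Symbols were matched for 29322 of 38445 identifiers through a RefSeq table of the GRCr8 assembly, used for names and promoter sequences only. The analysis used edgeR 4.0.16 under R 4.3.3. Its filterByExpr step (minimum count 10, minimum total 15) kept 18141 genes, TMM scaled the libraries, and its quasi-likelihood test compared ethanol with control, with p-values adjusted by Benjamini and Hochberg's method over all genes tested. CPM use the reads in tested genes times the TMM factor, and log2 CPM a prior count of 2. The SE of a log2 fold change was taken from its size and the F statistic. Alternatives were edgeR's likelihood ratio test, DESeq2 1.42.0, limma-voom 3.58.1, other scaling, no filter, a replicate block, and leaving out each library. The fits across genes were tested on simulated data. Replicate libraries were separate samples: their counts differed beyond sampling noise in every pair (chi-square over its degrees of freedom, 15.3 to 72.6). The p-values measure the spread between these pools of 2 rats.

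The 10 genes, the lists and the rule for genes named in the text were chosen with earlier results of these data known. Named were the 10 genes, Nr3c1, Nr3c2 and Hsd11b1, the 5 genes of the glucocorticoid-induced list with the smallest p together with Fkbp5, Per1, Klf9 and Pdk4, the 2 most abundant genes of each other list (1 of these is not reported here), and the 5 genes most correlated with Sgk1 and with the mean of the 10. Lcn2, Otx2 and Hbb-b1 are named outside that rule, after their values were seen. The p53 list held both the mouse and the rat spelling of Tp53inp1, which was counted once.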

Additional observations from a re-analysis of the deposited data

How the results depend on the processing

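All 10 target genes stayed higher after ethanol under each alternative run, and their median log2 fold change ran from 0.34 without ethanol replicate 3 to 0.56 without ethanol replicate 1. That of the 28 other induced genes ran from 0.26 (without ethanol replicate 2) to 0.39 (without control replicate 2). Calls depended on the tool. The quasi-likelihood test called 0 of all genes, 0 of the 10, 0 of the 28 and 0 of the context lists. The likelihood ratio test called 77, 3, 9 and 1, and DESeq2 75, 3, 9 and 1. The 3 were Sgk1, Tsc22d3 and Ddit4 with both, against 0.138% and 0.16% of all genes called as higher, and since the genes were chosen on this contrast these calls support nothing. Leaving out each library gave 0 to 82 genes, 0 to 1 of the 10, 0 to 2 of the 28 and 0 to 9 of the context lists. The 82 and the 9 came without ethanol replicate 3 and the 1 (Sgk1) and the 2 without ethanol replicate 1, where 4 of all genes were called. The cause was not tested. Library size alone moved the median of all genes to -0.02. The direction of Nr3c1, Nr3c2 and Hsd11b1 was not stable. Leaving out each library gave -0.089 to 0.022 for Nr3c1, -0.23 to 0.18 for Nr3c2 and -0.10 to 0.10 for Hsd11b1, which was at 0.00076 with no filter on low counts. Same-numbered libraries come from different rats, so the main test did not pair them. Their deviations correlated by 0.03, 0.39 and 0.21 over 14241 genes, and those of differently numbered libraries by -0.43 to 0.30. The labels do not say whether the number marks a shared batch, and this was not tested. With the replicate block the test called 0 genes, the median of the 10 was 0.40, and unadjusted p below 0.05 went from 763 to 1030 genes. The legacy quasi-likelihood fit, added after the data were seen, also called 0. Among the 10, Plin4 had the lowest counts and so the largest counting error.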
